A study of Mus musculus with 10 samples.

Results

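The integrated stress response is followed here through 10 genes, Atf3, Atf4, Atf5, Ddit3, Chac1, Trib3, Asns, Psat1, Phgdh and Ppp1r15a, in the livers of mice that lack Dicer1. All probe sets that the platform annotation gives to 1 of these genes were taken, which found all 10 genes among the 12366 measured and 15 of 25958 probe sets. The mice were 28 days old, of mixed strain and fasted for 5 hours. The 5 mutants were DicerloxP/loxP;Afp-Cre+ animals. In these, a recombinase driven from Afp, a gene of the fetal liver, deletes a floxed part of Dicer1. Dicer1 encodes the enzyme that cuts mature microRNAs out of their precursors. The other 5 mice are given only as controls, and the labels used here do not say whether they carried floxed alleles or Cre. Each array holds RNA of 1 whole liver, so cells without Afp-Cre activity contribute their own RNA, and fewer cells of a type cannot be told apart from less RNA per cell.

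In the integrated stress response, kinases that sense amino acid shortage, misfolded protein, missing heme or double-stranded RNA phosphorylate the initiation factor eIF2. General translation falls, while the mRNAs of the transcription factors ATF4 and ATF5 and of CHOP, the product of Ddit3, are translated better. ATF4, often with a C/EBP partner, then induces genes of amino acid supply and of feedback control. A large part of the regulation of Atf4 and Atf5 is thus translational, which an array of RNA does not measure.

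The 10 genes did not move as a block. Atf5 and Chac1 fell in mutant liver, Atf5 by 1.10 (SE 0.16, adjusted p = 0.00776) and Chac1 by 2.03 (SE 0.46, adjusted p = 0.0234) on the log2 scale, in all 5 mutants. Atf4 and Ddit3, the regulators at the head of the pathway, differed by no more than 0.20 on any probe set. Atf3 was higher in all 5 mutants without passing the test, and Asns, the asparagine synthetase, ranged over the mutants more widely than its controls did. By limma, adjusted over all probe sets, 0 of the 15 were called higher and 2 lower at an adjusted p under 0.05, and at an unadjusted p under 0.05 there were 4, of which 1 was higher. The 2 calls are a share near the background, since 13.2% of all probe sets were called, 5.8% higher and 7.39% lower. Groups did not overlap for 3 of the 15, against 10.3% of all probe sets. The median difference over the 10 genes, each by its probe set with the highest mean, was -0.12, against -0.01 for all genes.

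**Figure D1:**
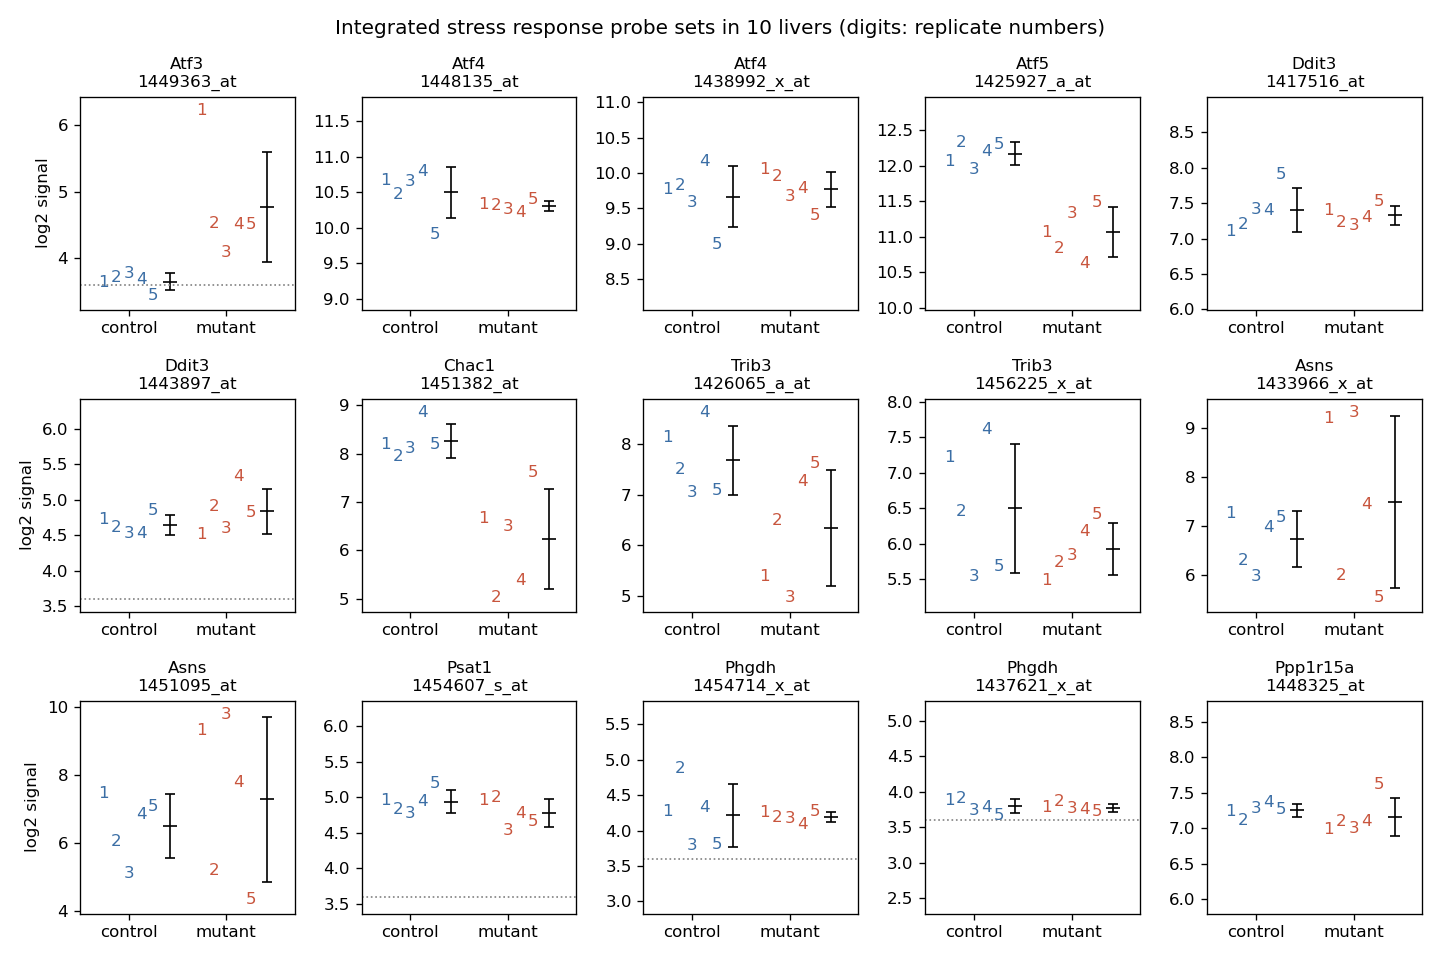
Log2 signal (vertical axes, each panel with its own range) of the 15 probe sets in 5 control and 5 mutant livers. Digits are replicate numbers, black bars show mean and SD, and the dotted line is the 25th percentile of all values, 3.60. The groups lie apart for Atf3, Atf5 and Chac1.

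As a check of the labels, Dicer1 was lower by 2.31 (SE 0.10) and 1.03 (SE 0.07) on its 2 probe sets. The 10 arrays were alike, with pairwise correlations from 0.970 to 0.993 and medians from 6.40 to 6.67. Mutant replicate 5 stood nearer to the controls than the other mutants on the first principal component (46.8% of the variance), at -15.4, against -45.8 to -25.6 for controls and 33.4 to 62.2 for the other 4 mutants. Its Dicer1 signal was nevertheless low. Among cell markers, 5 of 10 Kupffer cell and macrophage genes and 4 of 8 stellate cell genes were higher and 0 lower. Their mean log2 signal ran from 9.24 to 10.18 in controls and 10.22 to 10.75 in mutants for macrophages, and from 9.80 to 10.07 and 10.26 to 10.83 for stellate cells. Of 7 hepatocyte genes, albumin among them, 0 were called in either direction (1 and 1 at an unadjusted p under 0.05), with a mean of 14.68 to 15.12 in controls and 14.81 to 15.12 in mutants. Of 8 endothelial genes, 1, the hyaluronan receptor gene Lyve1, was lower, with a mean of 8.65 to 9.12 and 8.58 to 8.75. For biliary (5 genes), lymphocyte (3) and neutrophil (3) markers, 0 were called (1, 0 and 1 at an unadjusted p under 0.05). Their means ran in controls and mutants from 3.78 to 4.07 and 4.03 to 4.65, from 3.36 to 3.57 and 3.26 to 3.75, and from 5.72 to 7.54 and 6.70 to 8.62. Of these, Krt7, Cftr and Nkg7 had means under the 25th percentile of all values, 3.60, called the floor here.

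Atf4 encodes the transcription factor at the centre of the response. On its probe set 1448135_at the controls stood at 10.67, 10.47, 10.65, 10.80 and 9.90 in replicates 1 to 5, and the mutants at 10.33, 10.32, 10.26, 10.21 and 10.40. Control replicate 5 was the lowest of the 10 livers, and all 5 mutants lay inside the control range. The difference was -0.20 (95% interval -0.54 to 0.15, adjusted p = 0.463). Without control replicate 5 it was -0.35 (adjusted p = 0.0280), so the lack of a call here rests on that 1 liver. The other Atf4 probe set, 1438992_x_at, whose suffix marks probes that can cross-hybridise, differed by 0.10 (95% interval -0.37 to 0.57, adjusted p = 0.830). On it control replicate 5 was again the lowest of the 10 livers. Over the 10 fits that each left out 1 liver, this probe set differed by -0.07 to 0.22. It was called in 0 of them (lowest adjusted p = 0.549).

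Atf5 encodes a relative of ATF4 whose mRNA is abundant in liver. Its signal on 1425927_a_at was 12.07, 12.33, 11.94, 12.21 and 12.30 in controls and 11.06, 10.83, 11.34, 10.62 and 11.48 in mutants. Each mutant lay below each control, mutant replicate 4 lowest and mutant replicate 5 highest of its group. The means were 12.17 ± 0.16 (SD, n = 5) and 11.07 ± 0.35 (SD, n = 5), a 2.15-fold lower signal if the deposited values are to base 2. Atf5 stayed called in all 18 alternative settings, with differences from -1.21 to -0.99, and the highest adjusted p was 0.0299.

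Ddit3, which encodes CHOP, the factor of prolonged stress and cell death, was measured by a brighter and a dimmer probe set. On the brighter, 1417516_at, controls averaged 7.40 ± 0.31 (SD, n = 5), from 7.09 to 7.90, and mutants 7.33 ± 0.14 (SD, n = 5), from 7.18 to 7.52. All 5 mutants fell within the control range. The difference was -0.07 (95% interval -0.40 to 0.25, adjusted p = 0.825). On the dimmer, 1443897_at, the difference was 0.19 (95% interval -0.14 to 0.52, adjusted p = 0.463), with mutant replicate 4 highest at 5.33 and controls up to 4.85. The intervals leave room for a rise of at most 0.52 on the log2 scale.

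Atf3 encodes a stress-induced factor of the same leucine zipper family, also induced as an immediate early gene. On 1449363_at it stood at 3.64, 3.70, 3.77, 3.68 and 3.43 in controls and at 6.22, 4.53, 4.08, 4.51 and 4.51 in mutants. The controls lay at the floor, 1 of them below it, and all 5 mutants lay above all controls, with mutant replicate 1 far above the rest. The difference was 1.13 (SE 0.35, 95% interval 0.34 to 1.92, adjusted p = 0.0638). The exact permutation test over livers gave p = 0.00794, two-sided and not adjusted, the smallest that 5 against 5 can give. It restates that the groups lay apart, as they did for 10.3% of all probe sets. Without mutant replicate 1 the difference was 0.76 and passed the test (adjusted p = 0.0178). Because the control signal lies at the floor, the size of the difference depends on how background was treated before deposit. The macrophage and stellate cell markers were higher in the same mutants, and their part in the Atf3 difference was not tested.

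Ppp1r15a, or Gadd34, encodes the subunit that directs a phosphatase to eIF2 and ends the response. Its signal on 1448325_at was 7.24, 7.10, 7.28, 7.37 and 7.26 in controls and 6.98, 7.10, 7.00, 7.09 and 7.62 in mutants. In 4 mutants it lay at or below the lowest control, and mutant replicate 5 was the highest of the 10 livers. The difference was -0.09 (95% interval -0.36 to 0.17, adjusted p = 0.686), and -0.21 without mutant replicate 5 (adjusted p = 0.0383). Over all probe sets, the fit without mutant replicate 5 called 2115 higher and 3194 lower, in place of 1505 and 1917.

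Trib3, a pseudokinase that is induced by ATF4 and CHOP and in turn restrains them, was low in some mutants. On 1426065_a_at controls stood at 8.13, 7.49, 7.05, 8.62 and 7.08 and mutants at 5.38, 6.48, 4.97, 7.26 and 7.62. Mutant replicates 1, 2 and 3 lay below all controls, and mutant replicates 4 and 5 lay among them. The difference was -1.33 (SE 0.56, 95% interval -2.59 to -0.08, adjusted p = 0.150), which did not pass, and exact permutation gave p = 0.0714, two-sided. On 1456225_x_at it was -0.57 (95% interval -1.49 to 0.35, adjusted p = 0.419), with mutants from 5.49 to 6.41 and controls from 5.54 to 7.60. The 2 probe sets ordered the 5 controls alike, with control replicate 4 highest and control replicate 3 lowest, but not the 5 mutants.

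Chac1 encodes an enzyme that cleaves glutathione, and its mRNA is a common readout of ATF4 activity. On 1451382_at it stood at 8.20, 7.94, 8.12, 8.85 and 8.20 in controls and at 6.67, 5.02, 6.50, 5.38 and 7.60 in mutants. The groups did not overlap: mutant replicates 2 and 4 were lowest, and mutant replicate 5 came nearest to the controls. The means were 8.26 ± 0.35 (SD, n = 5) and 6.23 ± 1.04 (SD, n = 5), a 4.08-fold lower signal if the values are to base 2. The call was lost when control replicate 3, control replicate 4 or mutant replicate 4 was left out (differences -2.07, -1.88 and -1.81, adjusted p = 0.0516, 0.0563 and 0.0561), and the direction did not change in any of the 18 settings.

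Asns, which makes asparagine and is among the best studied targets of amino acid limitation, differed more between mutants than between groups. On 1451095_at controls stood at 7.45, 6.04, 5.11, 6.84 and 7.09 and mutants at 9.32, 5.20, 9.77, 7.78 and 4.34. Mutant replicates 1, 3 and 4 lay above all controls, mutant replicate 5 lay below all of them, and mutant replicate 2 lay near the lowest. The other probe set, 1433966_x_at, gave 7.25, 6.30, 5.99, 6.98 and 7.19 in controls and 9.19, 5.99, 9.32, 7.44 and 5.55 in mutants. It ordered the 5 controls and the 5 mutants exactly as the first did. The SD was 2.43 in mutants and 0.94 in controls on the first probe set, and 1.75 and 0.57 on the other. Group differences were 0.78 (95% interval -1.65 to 3.20, adjusted p = 0.718) and 0.76 (95% interval -0.96 to 2.47, adjusted p = 0.591), and these intervals exclude neither a large rise nor a large fall. The differences rest on single livers: they were 0.15 and 0.30 without mutant replicate 3, 0.27 and 0.33 without mutant replicate 1, 1.30 and 1.13 without mutant replicate 2, and 1.51 and 1.25 without mutant replicate 5. Without control replicate 3 the first was 0.43. Mutant replicates 1 and 3, highest for Asns, were lowest for Trib3 on 1426065_a_at, and mutant replicate 5 was lowest for Asns and highest among mutants for Trib3. On the other Trib3 probe set, 1456225_x_at, mutant replicates 1 and 2 were lowest, at 5.49 and 5.74, and mutant replicate 3 stood at 5.83. With 5 mutants, no correlation was computed.

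**Figure D2:**
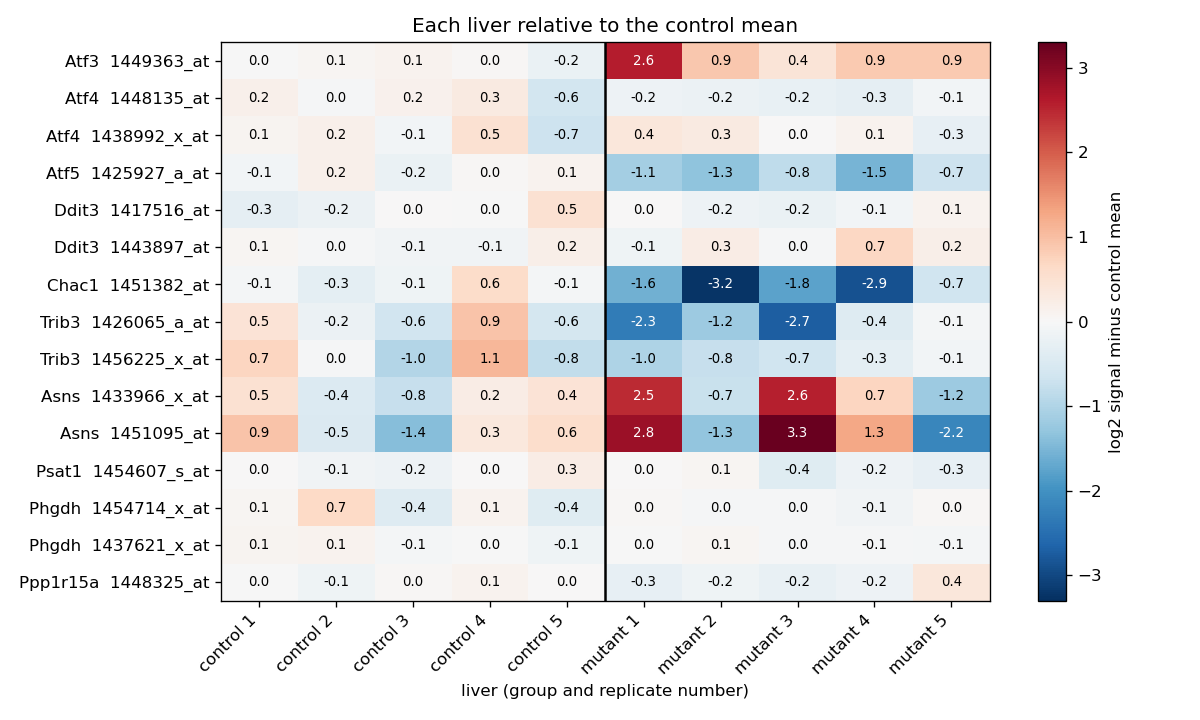
Log2 signal of each probe set (rows) in each liver (columns) minus the control mean of that probe set, printed in the cells. Atf5 and Chac1 are below 0 in all mutants, Atf3 is above 0 in all mutants, and Asns is strongly positive in mutant replicates 1 and 3 and negative in 2 and 5.

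Psat1 and Phgdh encode enzymes of serine synthesis from a glycolytic intermediate. Psat1 on 1454607_s_at ran from 4.77 to 5.19 in controls and from 4.53 to 4.99 in mutants, with 3 mutants below the lowest control. Its difference was -0.15 (95% interval -0.40 to 0.09, adjusted p = 0.410). Phgdh was dim on both probe sets, from 3.79 to 4.87 in controls and 4.09 to 4.26 in mutants on 1454714_x_at and from 3.66 to 3.90 and 3.72 to 3.86 on 1437621_x_at. The differences were -0.02 (95% interval -0.45 to 0.40, adjusted p = 0.982) and -0.02 (95% interval -0.14 to 0.10, adjusted p = 0.887). Signal this near the floor of 3.60 can hide a difference.

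**Figure D3:**
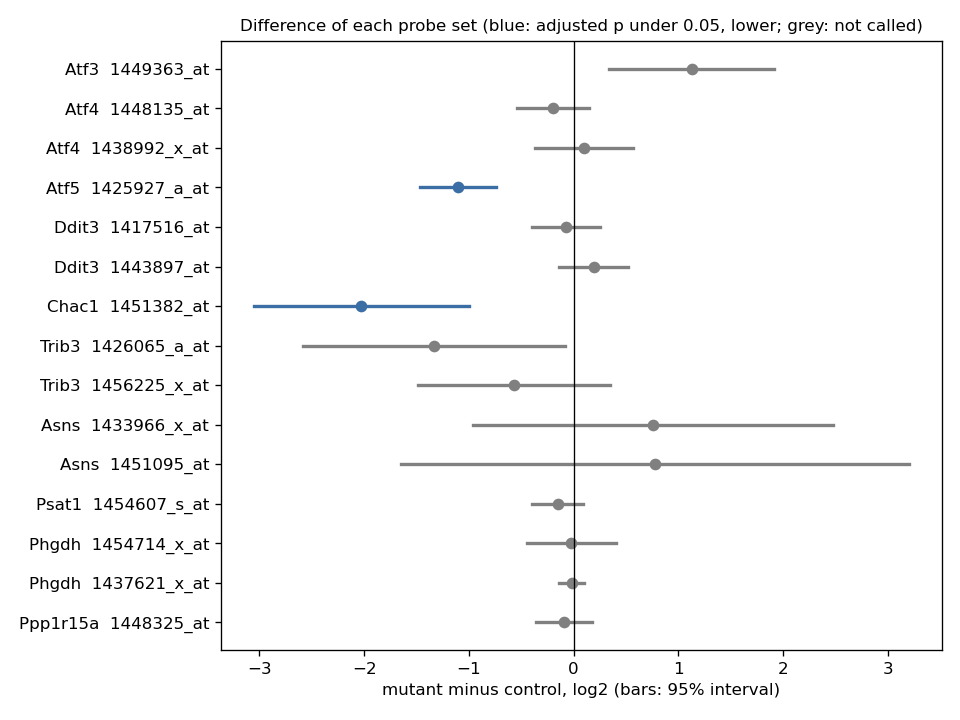
Mutant minus control differences on the log2 scale (horizontal axis) of the 15 probe sets, with 95% intervals from the limma fit. Blue marks the 2 probe sets with an adjusted p under 0.05, of Atf5 and Chac1. The 2 Asns intervals are the widest of the 15.

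The promoters were searched for exact matches to 2 motifs of the kind that ATF4 is known to bind. RefSeq promoter windows of 300 bases (250 before to 50 after a gene start, build GRCm38.p6) were matched for all 10 genes, with 12 windows in all. They were searched on both strands for the core of the C/EBP-ATF composite element, TGATGNAA, and for the cyclic AMP response element, TGACGTCA. These motifs differ in letters and no matches overlapped. The composite core was found in 4 of the 12 windows, those of Atf3, Chac1, Trib3 and Asns, and in 3.97% of all 32851 windows of that length. The response element was found in 1 of the 12, that of Ppp1r15a, from 12 to 5 bases before the start, and in 1.79% of all windows. Atf4, Atf5, Ddit3, Psat1 and Phgdh held no exact match to either in these windows. That says nothing about elements elsewhere or about variants of the 2 motifs within the windows. The 250 bases before the start are shown for 3 of the 4 genes with a composite match, since Chac1 fell, Atf3 was higher without passing and Asns had no settled direction. Capitals mark the match, which lies 110 to 103 bases before the start in Atf3 (chr1:191183334-191183583, minus strand), 193 to 186 in Chac1 (chr2:119350992-119351241, plus strand) and 23 to 16 in Asns (chr6:7693210-7693459, minus strand). Sequences run 5′ to 3′ on the strand of the gene.
Atf3: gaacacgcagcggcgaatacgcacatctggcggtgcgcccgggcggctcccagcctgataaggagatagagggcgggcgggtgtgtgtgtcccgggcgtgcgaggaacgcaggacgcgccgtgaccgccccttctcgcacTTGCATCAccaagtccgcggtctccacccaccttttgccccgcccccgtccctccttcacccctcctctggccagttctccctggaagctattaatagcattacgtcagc
Chac1: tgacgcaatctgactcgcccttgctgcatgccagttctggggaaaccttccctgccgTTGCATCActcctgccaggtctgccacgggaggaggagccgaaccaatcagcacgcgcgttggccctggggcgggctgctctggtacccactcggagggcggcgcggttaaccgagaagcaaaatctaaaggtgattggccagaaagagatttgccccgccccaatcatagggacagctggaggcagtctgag
Asns: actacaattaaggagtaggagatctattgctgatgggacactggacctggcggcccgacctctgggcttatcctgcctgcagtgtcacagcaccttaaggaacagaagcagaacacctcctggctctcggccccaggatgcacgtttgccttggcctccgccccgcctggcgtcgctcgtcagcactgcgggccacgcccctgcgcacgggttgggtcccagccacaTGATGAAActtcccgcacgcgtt
Atf3 and Chac1 hold the same 8 letters, TTGCATCA, the core on the opposite strand, while Asns holds TGATGAAA on the strand of the gene. The Trib3 match, TTACATCA, lies 15 to 22 bases after the start. The 4 genes with the composite core thus had differences of 1.13 (Atf3), -2.03 (Chac1), -1.33 and -0.57 (Trib3) and 0.78 and 0.76 (Asns), and of these Chac1 alone was called.

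The rest of the pathway was followed in 7 lists of related genes, each gene by its probe set with the highest mean, where 16.8% of all genes were called, 7.29% higher and 9.56% lower. Among 15 eIF2 kinases, eIF2 and eIF2B subunits and their regulators, 1 was higher and 0 lower (3 and 4 at an unadjusted p under 0.05 by limma), with a median of -0.08. With each gene taken by its probe set with the smallest p, a choice that favours calls, 1 was higher and 2 lower. The 1 higher gene was Impact, which encodes an inhibitor of the amino acid sensing kinase GCN2. It stood at 6.91, 6.79, 7.16, 7.27 and 7.56 in controls and 8.16, 7.77, 7.85, 8.50 and 7.78 in mutants. The groups did not overlap, and the difference was 0.87 (SE 0.18, adjusted p = 0.0194), called in all 18 settings. The eIF2B subunit genes Eif2b1 and Eif2b3 differed by -0.52 (adjusted p = 0.0585) and -0.51 (adjusted p = 0.0759). Both passed without mutant replicate 5 (adjusted p = 0.0241 and 0.0419), which made 2 higher and 2 lower in the list. Dnajc3, an inhibitor of the eIF2 kinases PERK and PKR, differed by -0.41 (adjusted p = 0.117), and its 5 probe sets ran from -0.57 to 0.15.

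Aminoacyl-tRNA synthetases, which charge tRNAs with amino acids and are in part ATF4 targets, were lower in 4 of 14 measured genes and higher in 0 (6 and 1 at an unadjusted p under 0.05), with a median of -0.30 against -0.01 for all genes. With each gene taken by its probe set with the smallest p, 5 were lower and 0 higher. The list also holds the tRNA exporter Xpot. Tars, the threonine enzyme, stood at 10.72, 10.85, 10.79, 10.56 and 10.85 in controls and 9.55, 9.56, 9.62, 9.47 and 10.09 in mutants. The groups lay clearly apart, and mutant replicate 5 was nearest to the controls. Tars fell by 1.09 (SE 0.12, adjusted p = 0.00355), and was called in all 18 settings. Cars, for cysteine, and Mars1, for methionine, fell, the first by 0.77 (SE 0.16, adjusted p = 0.0196) and the second by 0.44 (SE 0.09, adjusted p = 0.0208). Both calls were lost without mutant replicate 4 (adjusted p = 0.0503 and 0.0528), which left 2 genes of the list called. Wars, for tryptophan, fell by 0.36 (adjusted p = 0.0356) on 1 of 4 probe sets that ran up to 0.21, and of 10 fits that each left out 1 liver, 7 lost its call (adjusted p = 0.0514 to 0.0761); those without control replicate 2, mutant replicate 4 and mutant replicate 5 did not.

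Of 11 measured enzymes of serine, one-carbon and amino acid metabolism, 1 was called higher and 1 lower (1 and 2 at an unadjusted p under 0.05), a share near that of all genes. The differences of 10 of the 11 lay below 0, with a median of -0.17. Among the 10, Gpt2 (-0.004) and Aldh1l2 (-0.006) hardly differed, and Mthfd1l and Aldh1l2 were on average below the floor. Psph, the last step of serine synthesis after PHGDH and PSAT1, stood at 8.12, 8.20, 8.25, 7.99 and 8.54 in controls and 7.48, 7.50, 7.24, 7.14 and 7.88 in mutants. No mutant reached the lowest control. Psph fell by 0.77 (SE 0.15, adjusted p = 0.0151), while the probe sets of Phgdh and Psat1 were not called. Cth, which makes cysteine by transsulfuration, rose by 0.78 (SE 0.14, adjusted p = 0.0131), from 14.48 ± 0.29 to 15.27 ± 0.18 (SD, n = 5 each). The mitochondrial folate enzyme gene Mthfd2 differed by -0.92 (adjusted p = 0.0688), with a mutant mean of 3.75 near the floor. Its other probe set differed by -0.08. Cbs, which precedes Cth in transsulfuration, differed by -0.24 (adjusted p = 0.241).

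Of 8 measured amino acid transporters, 1 was higher and 0 lower (2 and 1 at an unadjusted p under 0.05), with a median of 0.03. Slc1a4, a carrier of alanine, serine and cysteine, rose by 0.96 (SE 0.27, adjusted p = 0.0460), with overlapping groups. Leaving out 1 liver ended that call (adjusted p = 0.0691 to 0.100), and brought the count to 0, for each liver other than control replicate 2 and mutant replicate 5. The glycine carrier Slc6a9 differed by -0.92 (adjusted p = 0.104), and by -0.36 on its other probe set. Slc38a7 differed by 0.38 (adjusted p = 0.114, and 0.00761 without mutant replicate 5, where 2 transporters were higher). Slc3a2 differed by -0.14 (adjusted p = 0.384). Slc7a11, Slc7a1 and Slc7a3 were on average below the floor.

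Other targets of ATF4 and CHOP moved both ways. Of 15 measured, 3 were higher and 1 lower (4 and 2 at an unadjusted p under 0.05 by limma). The median of 0.00 was the value of Stc2, whose signal lay below the floor in all 10 livers. Eif4ebp1, an inhibitor of cap-dependent translation, stood at 10.11, 9.97, 9.40, 10.26 and 9.85 in controls and 8.89, 8.21, 8.61, 8.94 and 9.37 in mutants. The highest mutant, replicate 5, lay just under the lowest control, replicate 3. Eif4ebp1 fell by 1.11 (SE 0.23, adjusted p = 0.0175) and was called in all 18 settings. Ero1a, an oxidase of the endoplasmic reticulum, rose by 0.51 (SE 0.09, adjusted p = 0.0127) on 1 of 3 probe sets, which ran down to -0.04. The repressor gene Jdp2 and the autophagy receptor gene Sqstm1 rose by 0.94 (adjusted p = 0.0393) and 0.41 (adjusted p = 0.0440). Leaving out 1 liver ended the Jdp2 call (adjusted p = 0.0524 to 0.0901) for each liver but the 2 numbered 5, and the Sqstm1 call (adjusted p = 0.0573 to 0.0947) for each but mutant replicate 5. The count that rose was then 1 for livers numbered 1 to 4 of either group. The count that fell was 2 with either liver numbered 5 left out.

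Chaperones and sensors of the endoplasmic reticulum, which respond through ATF6 and XBP1, had a median of -0.26, with 0 higher and 1 lower of 15 (1 and 3 at an unadjusted p under 0.05). The 1 was the disulfide isomerase Pdia6, which fell by 0.45 (SE 0.13, adjusted p = 0.0472). Leaving out any 1 liver other than control replicate 2 and mutant replicate 5 ended that call (adjusted p = 0.0615 to 0.107). Dnajb9 differed by 0.63 (adjusted p = 0.122), Dnajb11 by -0.55 (adjusted p = 0.131) and Sdf2l1 by -0.93 (adjusted p = 0.142). Of the 15 differences in the list, 12 lay below 0 and 3 above.

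Immediate early genes, which share rapid induction with Atf3, had a median of 0.72, with 2 higher and 0 lower of 11 (4 and 0 at an unadjusted p under 0.05) and 10 of 11 differences above 0. Klf6, a zinc finger factor, stood at 6.34, 7.12, 7.28, 6.99 and 7.36 in controls and 8.82, 8.55, 7.87, 9.20 and 8.12 in mutants. The groups lay apart, mutant replicate 4 highest. Klf6 rose by 1.49 (SE 0.28, adjusted p = 0.0139), and its 5 probe sets ran from 0.07 to 1.79. Myc rose by 1.86 (SE 0.46, adjusted p = 0.0323), a call that ended when any 1 liver other than mutant replicates 3 and 5 was left out (adjusted p = 0.0550 to 0.0748). Btg2 differed by 1.32 (adjusted p = 0.0726), and by -0.15 on its other probe set. Jun differed by 1.30 (adjusted p = 0.0975, and 0.0478 without mutant replicate 3). In the fits that lost Myc, 1 gene of the list rose, and without mutant replicate 3 there were 3. The macrophage and stellate cell markers moved the same way as this list, and their part in it was not tested.

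**Figure D4:**
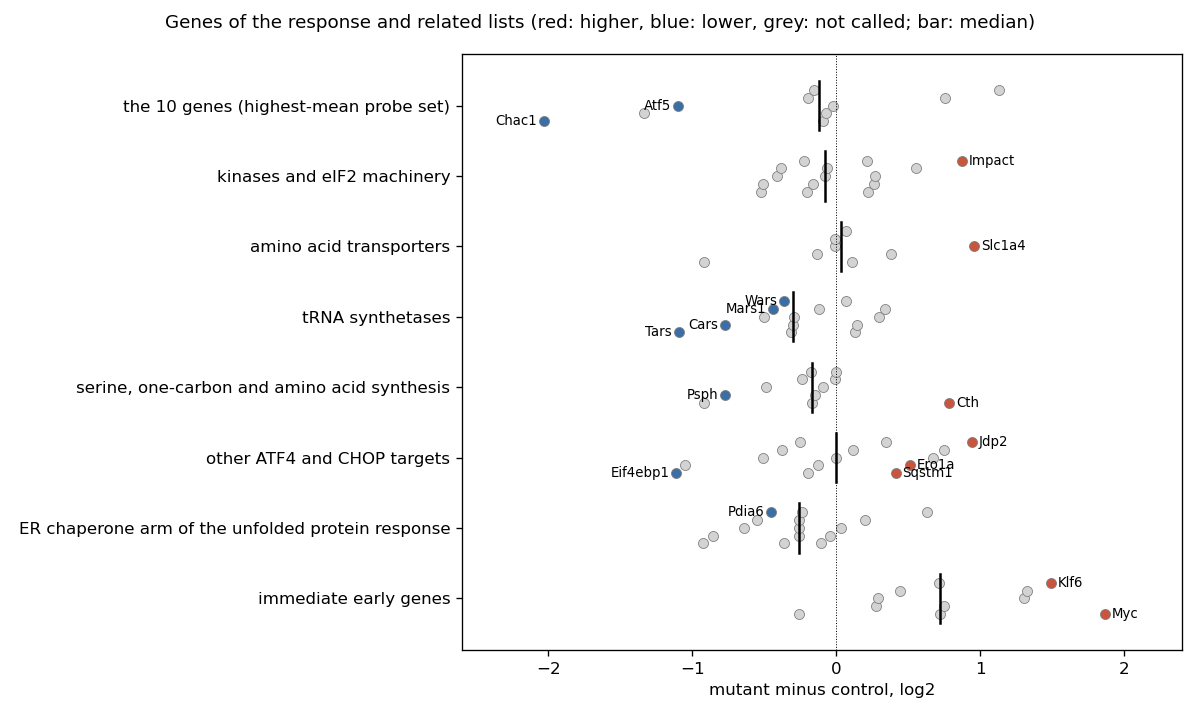
Mutant minus control differences on the log2 scale (horizontal axis) of the 10 genes and of 7 lists of related genes, 1 point per gene. Red genes rose, blue genes fell, grey genes were not called, and the black bar is the median of each list. The synthetase list has 4 blue genes, and the immediate early list has the highest median, 0.72.

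The livers were also searched for genes whose 10 values, taken relative to the control mean, lay closest to those of Atf5 and Chac1, among genes at least as bright on average as the median gene (7.63). Closest to Atf5 were Cmc2, Pop5 and Tars, with a mean absolute difference of 0.12, 0.12 and 0.15 per liver. Tars, of the synthetase list, was among the 3 closest of 6182 genes compared. The measure keeps the group difference, so genes that fell by a like amount rank high. Cmc2 differed by -1.14, Pop5 by -0.97 and Tars by -1.09. A link between these genes and Atf5 was not tested. Closest to Chac1 were Ociad2, Lppos and Mcm10, at 0.20, 0.27 and 0.27 per liver.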

How the data were processed

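Hepatic RNA of 10 mice was amplified and labelled with biotin, 1 array per liver, per the labels' protocols. The authors deposited log2 values per probe set, comparable between arrays; the log base was read from the values, and the sources used here give no background correction, normalization or summary method. Precision is limited by 5 arrays a group, and p-values reflect the spread among these animals only. After 37 control probe sets were left out, 21613 probe sets had 1 symbol, 638 several and 3707 none. Mutant minus control was fitted in R 4.3.3 by lmFit and eBayes (limma 3.58.1, two-sided tests). The p-values were adjusted over 25958 probe sets by Benjamini-Hochberg, and a probe set was called under an adjusted p of 0.05. All adjusted p in the text are from limma. The members, lists and the rule for named genes (all members, up to 4 genes of each list by smallest p, 3 genes closest to each of up to 3 called members) were chosen with earlier results of these data known. The labels used here do not say whether the replicate numbers pair the livers. Deviations of same-numbered livers correlated from -0.18 to 0.15, which does not settle it. On simulated data with 200 changed probe sets of 25958, the test recovered 27, 34, 48 and 50 of 50 probe sets at log2 changes of 0.5, 1, 2 and 3, with 13 false calls among 172. The data themselves had 3422 calls, so these rates do not measure what could be detected for the members. Alternatives were other array scalings, a filter on dim probe sets, 1 probe set per gene, other eBayes options, array weights, the replicate block and leaving out each liver.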

Additional observations from a re-analysis of the deposited data

Results flagged for a closer look

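In 3 of 30 groups of 5 livers, a liver stood apart from the other 4 by Dixon's ratio, where chance gives about 1 in 20. Mutant replicate 1 was highest for Atf3, at 6.22, with the next mutant at 4.53. Control replicate 4 was highest for Chac1, at 8.85, with the next control at 8.20. Mutant replicate 5 was highest for Ppp1r15a, at 7.62, with the next mutant at 7.10.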

How the results depend on the processing

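The member counts moved as follows. With dim probe sets left out and with 1 probe set per gene, 1 member was called higher in place of 0, Atf3 (adjusted p = 0.0416 and 0.0482); fewer probe sets were tested there. With array weights Trib3 on 1426065_a_at also passed (-1.82, adjusted p = 0.0465). With the replicate block, 1 member was called lower in place of 2, Chac1 being lost (adjusted p = 0.0514). Of all probe sets, 907 were then called higher in place of 1505. Of the controls, 1 of 5 correlated best with the mutant of its own number. The labels used here do not say whether the numbers pair the livers, and this match cannot settle it. Leaving out 1 liver gave 0 to 1 members higher and 1 to 3 lower. Of all probe sets, 776 to 2115 were then higher and 770 to 3194 lower, lowest without mutant replicate 4 and highest without mutant replicate 5. Calls of single genes lost without mutant replicate 4 or gained without mutant replicate 5 came with this shift over all probe sets. No called difference changed sign under any setting; for probe sets that were not called, the sign changed in 4 of 18 settings for Phgdh on 1454714_x_at, 3 of 17 for Phgdh on 1437621_x_at, and 1 each for 1 probe set of Atf4 and of Ddit3. Among the related genes, the calls of Slc1a4 (quantile normalization or median subtraction), Sqstm1 (median subtraction), Wars (trend and robust options) and Cars, Mars1, Cth, Jdp2 and Klf6 (replicate block) were lost, and with the replicate block the endoplasmic reticulum list had 1 gene higher and 4 lower in place of 0 and 1, with Dnajb9 higher (adjusted p = 0.0278) and Dnajb11 (0.0453) and Sdf2l1 (0.0225) lower. Eif2b1 was called lower in 6 settings that kept all livers; the cause was not tested. Array scaling moved the median of all probe sets by at most 0.03. The dim signal of Phgdh and of control Atf3 limits what can be said of them.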
